A study of Homo sapiens with 8 samples.

Results

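Albumin, alpha-fetoprotein and a set of oncofetal liver genes were followed in sorafenib-resistant (SR) and wild-type (WT) liver cancer cells. The set holds 10 genes, ALB, AFP, GPC3, DLK1, TTR, AHSG, PEG10, LIN28B, IGF2BP1 and IGF2BP3, taken by Ensembl identifier from 63241 genes in the deposited values. All 10 passed the filter on low values. Polyadenylated RNA was sequenced in 8 libraries, 2 from WT and 2 from SR cells of each of the lines HepG2 and Huh7, both derived long ago from human liver tumours. SR cells came from exposing each line to a stepwise gradient of sorafenib, a kinase inhibitor given in liver cancer. WT libraries are labelled control and SR libraries sorafenib, and no engineered allele is named. All 8 libraries carry a single batch label. Nothing in the labels says that the 2 libraries of a group came from separate cultures, so p-values measure the spread between these libraries. That spread may be technical, and it includes differences between libraries of unlike expression, described below. Expression is given in FPKM, fragments per kilobase of transcript at a fixed sequencing depth, a level already scaled for depth and length.

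These genes mark stages of the liver cell. In the embryo, hepatoblasts make alpha-fetoprotein, the fetal counterpart of albumin, together with DLK1 and the RNA-binding proteins LIN28B, IGF2BP1 and IGF2BP3, and these fall silent or nearly so as hepatocytes mature. ALB, TTR and AHSG encode carrier proteins and a mineral-binding protein that the hepatocyte secretes into plasma. GPC3, a cell surface proteoglycan, and PEG10, an imprinted gene derived from a retrotransposon, are often expressed again in liver cancer, where AFP and GPC3 serve as tumour markers.

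ALB and AFP are neighbours that arose by gene duplication. ALB lies at chr4:73397114-73421412 and AFP at chr4:73431138-73456174 (GRCh38, GENCODE release 29), on the plus strand, with AFP starting 9726 bases after the end of ALB. These are the outermost bounds of each annotated gene, and the main start of transcription can lie inside them.

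LIN28B, IGF2BP1 and IGF2BP3 share a feature of a different kind. LIN28B blocks the maturation of let-7 microRNAs, and let-7 in turn represses transcripts that carry its sites. The seed of let-7 (bases 2 to 8, in capitals) is shared by the 9 mature RNAs of the family that were searched.
hsa-let-7a-5p: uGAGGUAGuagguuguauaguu
hsa-miR-98-5p: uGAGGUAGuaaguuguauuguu
The complement of that seed was searched on the sense strand of the longest 3′ untranslated region of each gene (GENCODE release 29, GRCh38). It occurred 4 times in LIN28B, 4 times in IGF2BP1 and once in IGF2BP3, and 0 times in the other 7 genes. An example from each gene is printed, with the match in capitals.
LIN28B, chr6:105078816-105078844, plus strand: ggttgcaaagtCTACCTCatgcaagtata
IGF2BP1, chr17:49053702-49053730, plus strand: agtgctagtaaCTACCTCacagagcccca
IGF2BP3, chr7:23311785-23311813, minus strand: tttttactcaaCTACCTCaggtattcagt
A match was present in 9.58% of 19115 protein-coding genes, and 0.167% had at least 3. The searched region was 4549 bases in LIN28B, 6206 in IGF2BP1 and 2153 in IGF2BP3, against a median of 1083 over all. Those of DLK1 and PEG10, at 3328 and 5161 bases, held no match. The shares were not adjusted for length. Mature let-7 is not polyadenylated and was not measured in these libraries.

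The other genes lie on separate loci (GRCh38, GENCODE release 29). AHSG is at chr3:186612923-186621318 and TTR at chr18:31557010-31599021. GPC3 is at chrX:133535745-133985895, and the paternally expressed genes DLK1 and PEG10 are at chr14:100725705-100738224 and chr7:94656325-94669695. LIN28B is at chr6:104936616-105083332, IGF2BP1 at chr17:48997412-49055650 and IGF2BP3 at chr7:23310209-23470467. GPC3 and IGF2BP3 are on the minus strand and the rest on the plus strand.

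Before the groups are compared, the libraries themselves need a description, because the line named on a library did not predict its expression. Over 15066 genes, leaving out the 10 genes and the lists used below, Pearson's r of log2(FPKM + 1) was 0.915 to 0.976 among 5 libraries, namely both of HepG2 WT, replicate 1 of HepG2 SR and replicate 2 of either Huh7 group. Between the Huh7 replicate 1 libraries r was 0.965, and against those 5 it was 0.735 to 0.786. HepG2 SR replicate 2 stood apart, at 0.777 to 0.821 with the 5 and 0.818 to 0.848 with Huh7 replicate 1. All groups below are those of the labels, and whether each library carries the right label was not tested. Values without the libraries that stand apart are given for the genes and lists whose values they move most. FPKM carry no read totals, so no counting interval is given, and 12829 to 13386 genes per library reached an FPKM of at least 1.

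Hepatocyte markers were present in every library. Between 9 and 10 of 10 hepatocyte markers that are not among the 10 genes reached an FPKM of 1 in every library, with a summed level of 1140 to 5870 FPKM. KRT5, KRT6A and KRT14 of squamous epithelium, PTPRC and CD3E of blood cells, VWF and KDR of endothelium and DCN and LUM of fibroblasts were each under 1 FPKM in all 8. Of 6 squamous markers 1 or 2 reached 1 FPKM, with sums of 5.44 to 111 FPKM, mostly SFN and KRT17. Blood markers summed to 0.804 to 8.47 FPKM, endothelial markers to 0.772 to 4.52, embryonic kidney markers to 1.5 to 7.26 and melanocyte markers to 0.443 to 2.08. Fibroblast markers summed to 1.53 to 9.64 FPKM in 7 libraries and to 545 FPKM in HepG2 SR replicate 2, of which VIM gave 536 FPKM. Bile duct markers summed to 384 to 962 FPKM in the 5 libraries that resembled each other, with KRT19 ahead in each. The sums were 15.8 and 16.3 FPKM in Huh7 replicate 1, with EPCAM ahead. In HepG2 SR replicate 2 the sum was 65.8 FPKM, of which SOX9 gave 54.1 FPKM and KRT19 0.179 FPKM. The part of these markers in the results below was not tested.

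ALB was among the most abundant transcripts of 6 libraries and a minor transcript of the other 2. HepG2 WT held 2140 and 3160 FPKM of it, HepG2 SR 2870 and 4710 FPKM. In Huh7 WT it stood at 12 and 604 FPKM, and in Huh7 SR at 42.3 and 2890 FPKM. Both Huh7 replicate 1 libraries were far below the rest, and HepG2 SR replicate 2 was the highest. Within its library ALB ranked 6th in HepG2 SR replicate 2 and 5334th in Huh7 WT replicate 1.

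AFP followed ALB only in part. Its level was 18.2 and 35.8 FPKM in HepG2 WT and 25.3 and 1100 FPKM in HepG2 SR. In Huh7 WT it was 1.07 and 2.3 FPKM, and in Huh7 SR 2.55 and 21.8 FPKM. HepG2 SR replicate 2 was far above the other libraries, and the 2 Huh7 WT libraries were the lowest. The ratio of ALB to AFP, on the FPKM scale, was 88.2 to 117 in HepG2 WT and HepG2 SR replicate 1, and 4.28 in HepG2 SR replicate 2. It was 11.2 and 16.6 in the Huh7 replicate 1 libraries and 262 and 133 in Huh7 WT and SR replicate 2. In a bulk sample, fewer cells that express a gene and less RNA per cell cannot be told apart.

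TTR, the carrier of thyroid hormone and of retinol-binding protein, was 18.8 and 37 FPKM in HepG2 WT and 20.9 and 273 FPKM in HepG2 SR. It was 0.371 and 1.12 FPKM in Huh7 WT and 0.15 and 33.1 FPKM in Huh7 SR. HepG2 SR replicate 2 was again the highest, and 3 of the 4 Huh7 libraries were near or below 1 FPKM.

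AHSG, fetuin-A, had a different order. It was 1860 and 2120 FPKM in HepG2 WT and 2520 and 175 FPKM in HepG2 SR. It was 4.61 and 663 FPKM in Huh7 WT and 29.5 and 2920 FPKM in Huh7 SR. HepG2 SR replicate 2, where ALB, AFP and TTR were highest, was thus below the other HepG2 libraries for AHSG.

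GPC3 and DLK1 were likewise lower in HepG2 SR replicate 2 than in the other HepG2 libraries. GPC3 was 951 and 1060 FPKM in HepG2 WT, 1070 and 301 FPKM in HepG2 SR, 90.5 and 410 FPKM in Huh7 WT and 123 and 1060 FPKM in Huh7 SR. DLK1, a membrane protein of the Notch ligand family carried by hepatoblasts, was 33 and 50.4 FPKM in HepG2 WT and 62.1 FPKM in HepG2 SR replicate 1, and was listed at 0 in HepG2 SR replicate 2. In replicate 1 of Huh7 WT and Huh7 SR it was 0.00701 and 0.0102 FPKM, against 36 and 47.7 FPKM in replicate 2. DLK1 was therefore at 33 to 62.1 FPKM in the 5 libraries of like expression and at or near 0 in the other 3.

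LIN28B had the opposite pattern. It was 10.8 and 11.6 FPKM in HepG2 WT, 12.3 and 44.1 FPKM in HepG2 SR, 45 and 12.4 FPKM in Huh7 WT and 35.7 and 10.4 FPKM in Huh7 SR. The 5 libraries of like expression spanned 10.4 to 12.4 FPKM and the other 3 spanned 35.7 to 45 FPKM, with no value between. LIN28B shares at most 34 exon bases with LIN28B-AS1 on the opposite strand, and whether strand was used in counting is not given.

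PEG10 was 259 and 276 FPKM in HepG2 WT, 229 and 169 FPKM in HepG2 SR, 106 and 56.4 FPKM in Huh7 WT and 90.3 and 169 FPKM in Huh7 SR. PEG10 overlaps SGCE over 219 exon bases on the opposite strand, and SGCE itself was at 13.1 to 35.7 FPKM. The narrowest spans were those of the IGF2BP genes. IGF2BP1, which binds and stabilises mRNAs, spanned only 25.9 to 41.9 FPKM. It was 41.9 and 38.9 FPKM in HepG2 WT, 34.3 and 40.1 in HepG2 SR, 35.2 and 27.3 in Huh7 WT and 28.9 and 25.9 in Huh7 SR. Its paralog IGF2BP3 was 20.8 and 31.7 FPKM in HepG2 WT, 20.1 and 13.8 in HepG2 SR, 27.1 and 17.9 in Huh7 WT and 21.5 and 20.3 in Huh7 SR. IGF2BP3 shares up to 1521 exon bases with MALSU1 on the opposite strand, so reads there cannot be told apart without strand.

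**Figure D1:**
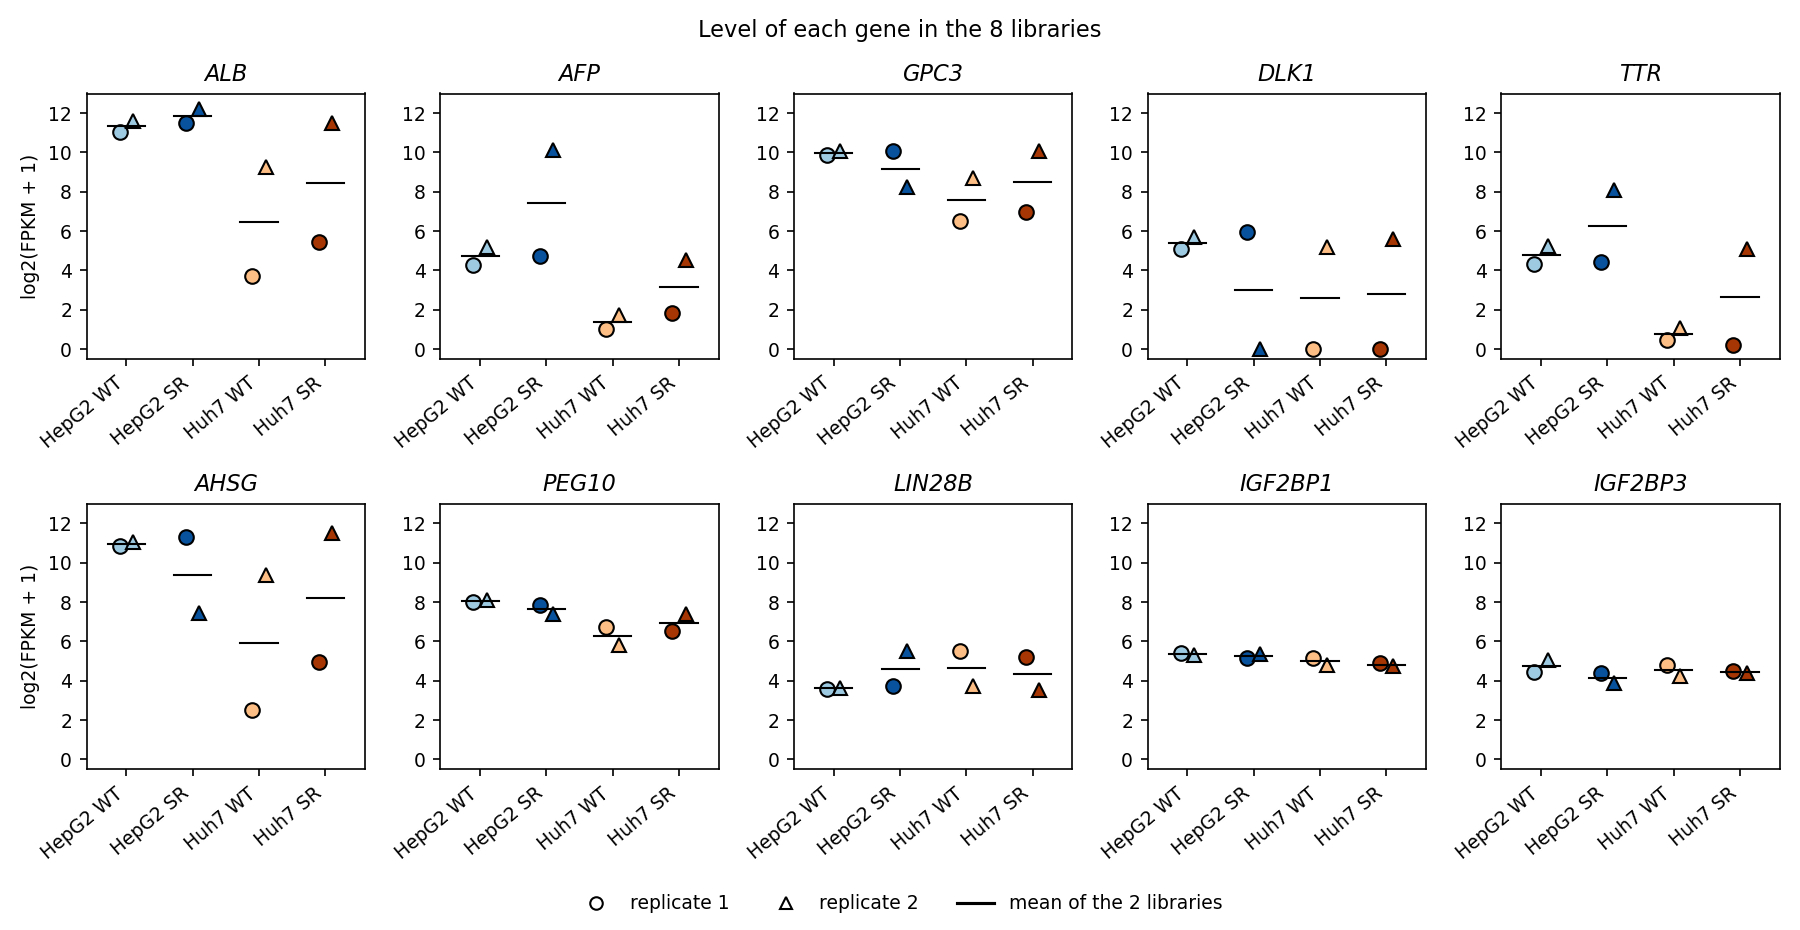
Each panel plots 1 gene, with log2(FPKM + 1) on the vertical axis and the 4 labelled groups on the horizontal axis; circles are replicate 1, triangles replicate 2, and lines the mean of the 2 libraries. The replicates of ALB, AHSG and DLK1 lie far apart in Huh7 WT and Huh7 SR, LIN28B takes the reverse position, and IGF2BP1 and IGF2BP3 stay between 13.8 and 41.9 FPKM in all 8 libraries.

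The spread over libraries differed widely among the 10 genes. The range from lowest to highest library, on the log2(FPKM + 1) scale, was 9.06 for AFP, 9.02 for AHSG, 8.5 for ALB and 7.89 for TTR, each larger than in at least 99.8% of the 15173 genes tested. DLK1 had a range of 5.98, GPC3 of 3.55, PEG10 of 2.27 and LIN28B of 2.01. For IGF2BP3 it was 1.15 and for IGF2BP1 0.67, below the median of 1.45 over all tested genes. Only 5.12% of the tested genes had a smaller range than IGF2BP1.

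SR was compared with WT in each line with limma on log2(FPKM + 1), fitting 4 group means to all 8 libraries at once. A gene was called at the thresholds of the study's methods. They ask for p below 0.05 before adjustment and a fold change on the log2 scale beyond 0.5 either way. The study applied them with another method, edgeR, so the calls made here in limma are not those of the study. The Benjamini-Hochberg adjusted p over all 15173 genes was read beside each call. Fold changes on this scale understate the change of weakly expressed genes. No gene of the 15173 reached an adjusted p under 0.05 in any comparison below. The smallest limma adjusted p over all genes was 0.956 for HepG2 SR, 0.813 for Huh7 against HepG2 and 0.998 over both lines.

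In HepG2, no gene of the 10 passed the test between SR and WT. None was called, where 2.14% of all tested genes were (0.877% higher in SR, 1.27% lower), and 0 had an unadjusted p under 0.05 in limma. By replicate number, ALB, AFP, TTR and LIN28B were higher in SR than in WT in both, and PEG10 and IGF2BP3 lower in both, against 26.4% and 29.7% of all genes. ALB was 1.34 and 1.49 times its WT level in replicates 1 and 2. For AFP, TTR and LIN28B the larger fold was in replicate 2. AFP was 1.39 times its WT level in SR replicate 1 and 30.7 times in SR replicate 2. TTR was 1.11 and 7.38 times, LIN28B 1.14 and 3.8 times, and AHSG 1.36 and 0.0826 times its WT level. The fitted log2 fold change of AFP was 2.68 (SE 1.68) with a limma adjusted p of 0.956, and that of DLK1 was -2.4 (SE 2.64). ALB, at 0.5 (SE 2.25), was within the replicate spread.

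Without HepG2 SR replicate 2, these differences shrank or turned. The log2 fold change was -0.02 for AFP, 0.09 for GPC3, 0.59 for DLK1, -0.32 for TTR and 0.35 for AHSG. With that library and without SR replicate 1, AFP alone was called, at 5.37 (unadjusted limma p of 0.00324, adjusted p = 0.325), in a fit that called 11.5% of all genes. The number of all genes called for HepG2 SR was 325 with all libraries and depended on single ones, at 1749 without SR replicate 1, 57 without SR replicate 2 and 73 without WT replicate 1. LIN28B was at 0.12 without SR replicate 2 and 1.89 without SR replicate 1. Both HepG2 SR libraries lay above both HepG2 WT libraries for LIN28B, and below them for PEG10 and IGF2BP3, where 38.2% of all genes did not overlap. The WT mean of PEG10 was 268 ± 12.2 FPKM (SD, n = 2) and its SR mean 199 ± 42 FPKM (SD, n = 2).

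In Huh7, 7 of the 10 genes had a positive fold change, with a median of 0.79 against -0.05 over all tested genes. None was called, where 1.87% of all genes were (0.942% higher in SR, 0.923% lower), and 0 had an unadjusted p under 0.05 in limma. By replicate number, ALB, AFP, GPC3 and AHSG were higher in SR than in WT in both, and DLK1 was too, at values near 0 in replicate 1. Of all genes, 23.8% were higher in both. ALB was 3.53 and 4.78 times its WT level, AHSG 6.4 and 4.4 times, AFP 2.38 and 9.44 times and GPC3 1.36 and 2.58 times in replicates 1 and 2.

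The 2 Huh7 replicates of each group differed from each other by more than SR differed from WT for ALB, AHSG, GPC3 and DLK1. The fitted log2 fold changes were 2 (SE 2.25) for ALB, 2.29 (SE 2.79) for AHSG, 1.78 (SE 1.68) for AFP, 1.88 (SE 1.7) for TTR and 0.9 (SE 1.17) for GPC3, each with a limma adjusted p of 1. AFP was the gene whose SR libraries both lay above both WT libraries, which 9.06% of all genes did. TTR was at 0.405 times its WT level in replicate 1, where both values were under 1 FPKM, and 29.7 times in replicate 2. PEG10 was at 0.853 and 3 times. LIN28B and IGF2BP1 were lower in SR in both replicates, at 0.794 and 0.837 times for LIN28B and 0.82 and 0.949 times for IGF2BP1, which 31% of all genes were.

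Leaving out a single Huh7 library turned several of these signs. ALB ranged from -1.03 without SR replicate 2 to 5.03 without SR replicate 1, AHSG from -1.15 without WT replicate 1 to 5.73 without WT replicate 2, and TTR from -0.57 without SR replicate 2 to 4.32 without SR replicate 1. Without Huh7 SR replicate 1, ALB and TTR were called (unadjusted limma p of 0.0479 and 0.0218, adjusted p = 0.899), in a fit that called 3.74% of all genes. For Huh7 SR, 283 of all genes were called with all libraries, 568 in that fit, 818 without Huh7 WT replicate 1, and 158 and 154 without HepG2 WT replicates 1 and 2. AFP kept its sign in each of these fits, at 0.44 to 3.12. The folds by replicate number given above set libraries of like expression against each other, but the labels do not say that a shared number marks a shared culture.

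**Figure D2:**
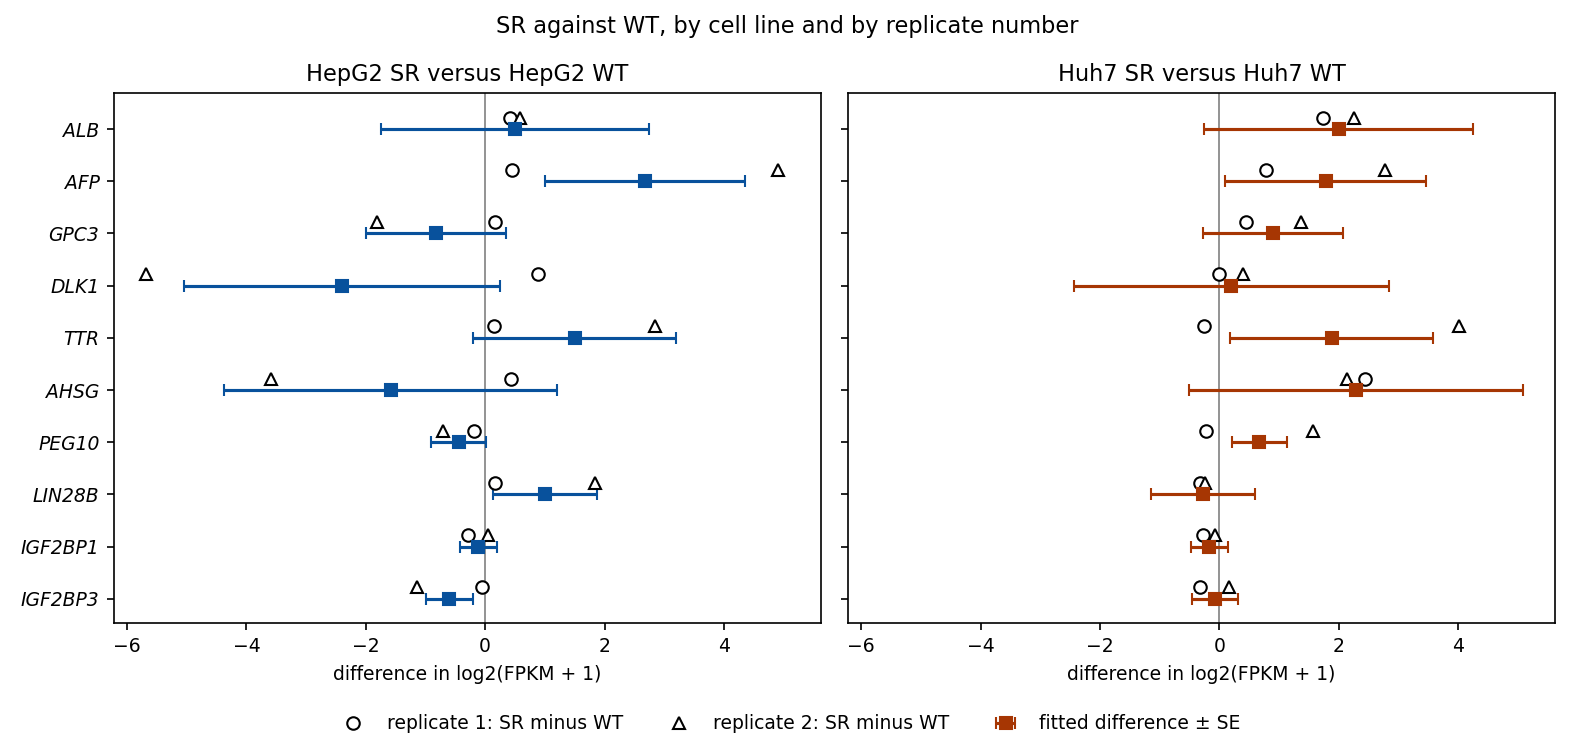
The horizontal axis is the SR minus WT difference in log2(FPKM + 1), in HepG2 at the left and Huh7 at the right, with 1 row per gene; squares and bars are the limma fit ± SE, open circles the difference in replicate 1 and open triangles that in replicate 2. In HepG2 the circles lie between -0.28 and 0.89 while the triangles run from -5.68 to 4.9, and in Huh7 both symbols of ALB, AFP, GPC3 and AHSG lie above 0.

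The difference between the lines in their response was tested as an interaction. None of the 10 genes was called, against 0.606% of all genes (0.369% with the higher value in Huh7, 0.237% lower), and 0 had an unadjusted p under 0.05 in limma. The largest estimate was that of AHSG, 3.87 (SE 3.95), which was -1.58 in HepG2 and 2.29 in Huh7. Over both lines together none was called either, against 3.93% of all genes (1.9% higher, 2.03% lower). AFP had the largest estimate, at 2.23 (SE 1.19, limma adjusted p = 0.998). With the replicate number as a block AFP was called (unadjusted limma p of 0.0352, adjusted p = 0.998), in a fit that called 3.4% of all genes. All 4 SR libraries lay apart from all 4 WT libraries for 0 of the 10 genes, and for 3.68% of all genes (1.52% higher, 2.17% lower). The interaction and the pooled comparison use the same libraries as those within each line.

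Levels in the libraries labelled Huh7 were compared with those labelled HepG2 in the same model. ALB, AFP, TTR and PEG10 were called lower in Huh7, 4 of 10 genes where 4.9% of all genes were called in either direction (2.04% higher, 2.87% lower), and none passed the adjusted threshold. For PEG10 the fitted difference was -1.22 (SE 0.32, unadjusted limma p of 0.00711, adjusted p = 0.813). It was the only gene of the 10 whose 4 Huh7 libraries all lay below the 4 HepG2 libraries, as 1.69% of all genes did (2.12% the other way), although the nearest libraries of the 2 lines both round to 169 FPKM. The differences were -4.13 (SE 1.59) for ALB, -3.79 (SE 1.19) for AFP and -3.82 (SE 1.2) for TTR, with limma p-values of 0.0368, 0.0158 and 0.0162.

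Of these calls, that of PEG10 was kept without any single library, at -1.45 to -1. ALB was not called once any of these was left out, HepG2 WT replicates 1 and 2, HepG2 SR replicates 1 and 2, Huh7 WT replicate 1 and Huh7 SR replicate 1 (-4.27, -3.99, -4.31, -3.95, -2.74 and -2.61). AFP was not called without Huh7 SR replicate 1 (-3.12) and moved to -2.45 without HepG2 SR replicate 2. TTR was not called without HepG2 WT replicate 2 (-3.58) or HepG2 SR replicate 2 (-2.91). Without Huh7 SR replicate 2, GPC3 and AHSG were called too, at -2.29 and -4.74, and AHSG also without Huh7 WT replicate 2, at -4.82.

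The size of the difference depended on which Huh7 libraries were read. Among the 5 libraries of like expression, where Huh7 is represented by replicate 2 of each group, it was -1.05 for ALB, -1.61 for AFP, -1.53 for TTR, -0.69 for AHSG, -0.65 for GPC3, -0.28 for DLK1 and -1.33 for PEG10. With Huh7 replicate 1 against the 3 HepG2 libraries of like expression, it was -6.85 for ALB, -3.29 for AFP, -4.29 for TTR, -7.42 for AHSG, -3.28 for GPC3, -5.67 for DLK1 and -1.33 for PEG10. LIN28B was -0.04 and 1.69 in these readings. Libraries were chosen here by their expression, so these values carry no test. With the 4 replicate 2 libraries alone, which set Huh7 against HepG2 SR replicate 2 in the SR arm, the difference was 2.57 for DLK1, 1.19 for AHSG and 0.22 for GPC3.

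**Figure D3:**
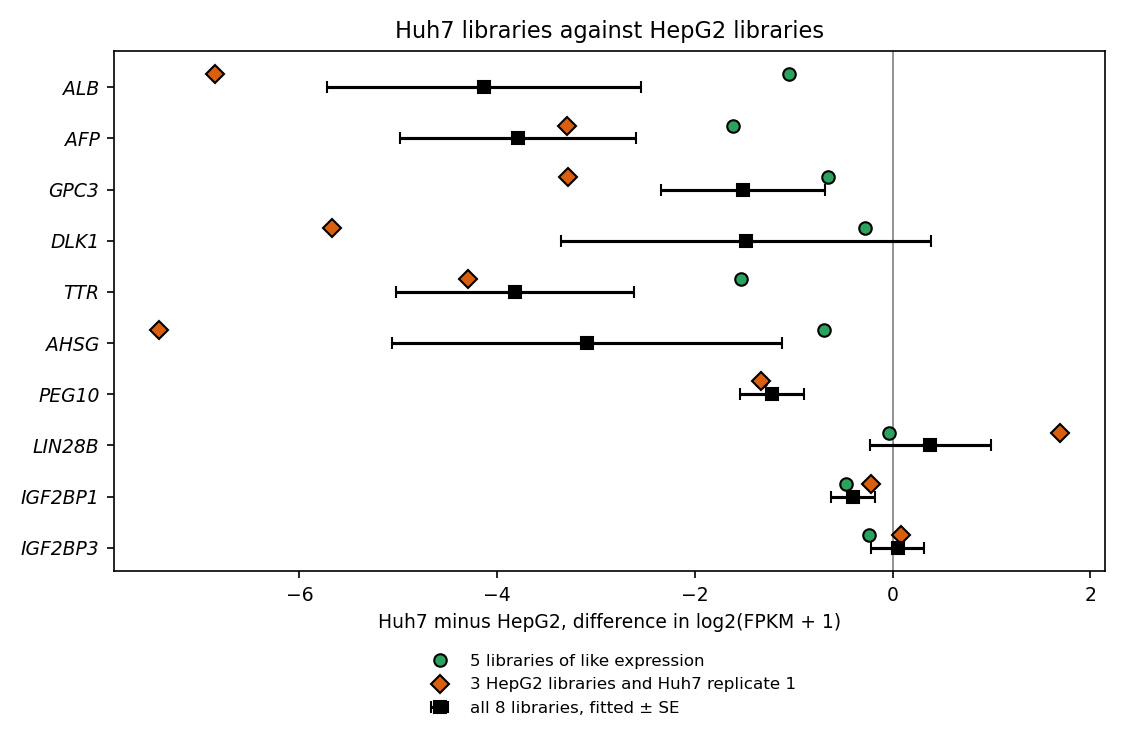
The horizontal axis is the Huh7 minus HepG2 difference in log2(FPKM + 1), with 1 row per gene; black squares and bars are the limma fit to all 8 libraries ± SE, green circles the difference among the 5 libraries of like expression, and orange diamonds that between Huh7 replicate 1 and 3 HepG2 libraries. PEG10 lies between -1.33 and -1.22 in every reading, while ALB moves from -1.05 to -6.85 and AHSG from -0.69 to -7.42.

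Other plasma protein genes were read from a list of 24, of which 23 were tested. In Huh7 SR versus WT, 22 of 23 had a positive fold change with a median of 1.2, against -0.05 over all tested genes. APOC3, TF and ITIH2 were called higher, where 0.942% of all genes were, and none lower. In replicate 1 the median was 0.51 and in replicate 2 it was 1.51, and 18 of the 23 genes were higher in both, as 23.8% of all genes were. The median of 1.51 is also that among the 5 libraries of like expression, which hold Huh7 replicate 2. The median of 0.51 rests on the Huh7 replicate 1 libraries, which stand apart from those 5. APOC3, an apolipoprotein of triglyceride-rich particles, went from 6.83 and 8.89 FPKM to 19.3 and 82.2 FPKM (log2 fold change 2.22, SE 0.69, limma adjusted p 1). The call was lost without Huh7 WT replicate 1 or SR replicate 2, at 1.2 to 3.24 over all omissions. TF, the iron carrier transferrin, went from 17.4 and 26 FPKM to 43.9 and 211 FPKM, at 2.13 (SE 0.7), and was lost without the same libraries. ITIH2, at 1.63, was called in 3 of the 8 fits with a library left out. In HepG2, 13 of the 23 were positive with a median of 0.19, and none was called.

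The most abundant of these genes were APOA2, APOA1 and SERPINA1, which encode high-density lipoprotein proteins and an elastase inhibitor. APOA1 ran from 17.7 FPKM in Huh7 WT replicate 1 to 1370 FPKM in HepG2 WT replicate 1. APOA2 ran from 98.9 to 2450 FPKM and SERPINA1 from 54.9 to 950 FPKM, with their lowest value in the same Huh7 library. The 2 widest ranges were those of fibrinogen chains, and they ran the other way. FGA was 594 and 805 FPKM in Huh7 replicate 1 and 1150 FPKM in HepG2 SR replicate 2, against 0.702 to 56.5 FPKM in the other 5 libraries. FGB was 380, 327 and 128 FPKM in those libraries, against 0.386 to 4.51 FPKM. The plasma list as a whole summed to 5910 to 8420 FPKM in the HepG2 libraries, to 3680 and 2500 FPKM in Huh7 WT and to 4420 and 7750 FPKM in Huh7 SR. Against HepG2, 22 of 23 were lower in Huh7 with a median of -1.1. That median was -0.97 among the 5 libraries of like expression and -1.77 with Huh7 replicate 1 in place of replicate 2. APOA1, APOC3, SERPINA1, TF, HP and ITIH2 were called lower, where 2.87% of all genes were. The calls of APOC3, SERPINA1 and ITIH2 were kept in all 8 fits with a library left out, those of TF, HP and APOA1 in 6, 4 and 3. Over both lines, where 1.9% of all genes were called higher, TF and AMBP were called higher in SR, in 4 and 3 of those fits. APOC3 was called in the interaction, at 2.9 (SE 0.98), in 5 of them. In the interaction, 0.369% of all genes were called with the higher value in Huh7.

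**Figure D4:**
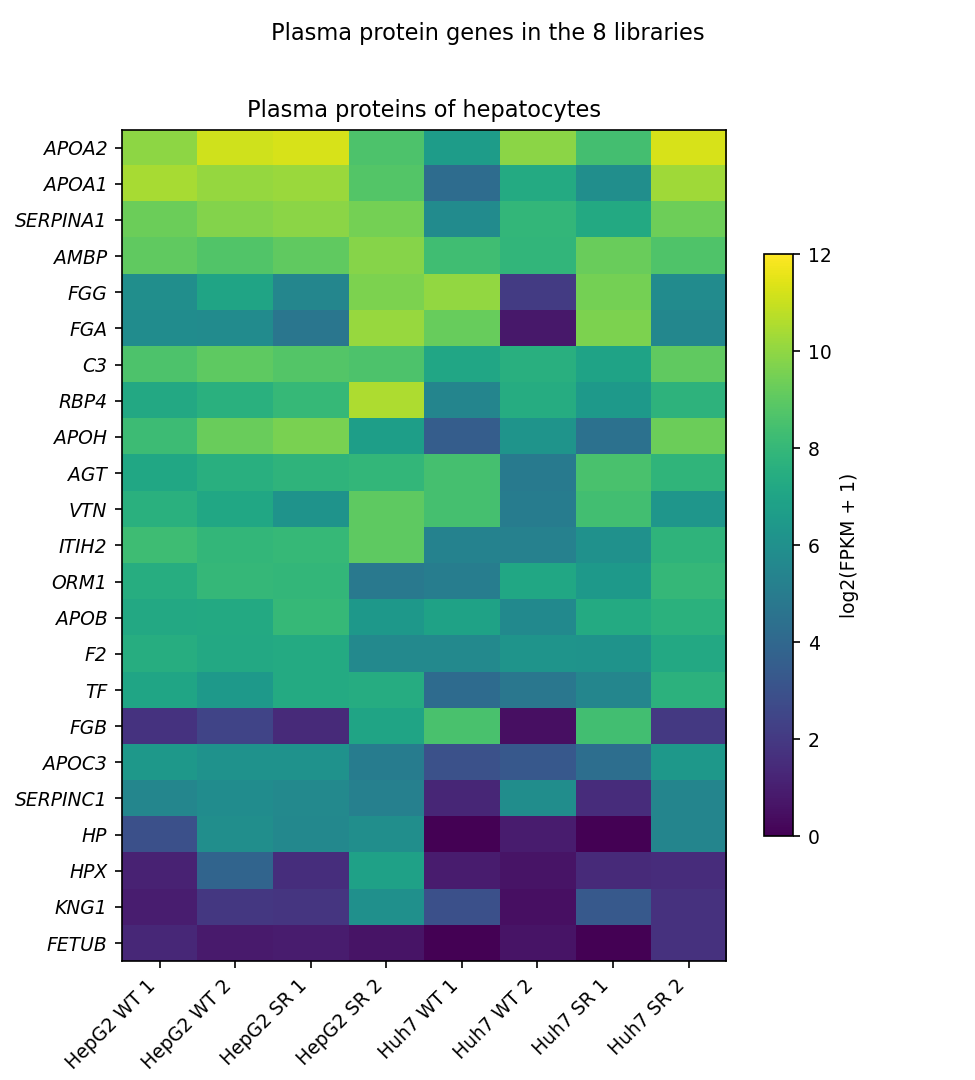
Rows are the tested genes of the plasma protein list, ordered by mean level, columns are the 8 libraries, and colour is log2(FPKM + 1) from 0 to 12. The fibrinogen genes FGA, FGB and FGG are bright in both Huh7 replicate 1 libraries and in HepG2 SR replicate 2, where FGB is 128 to 380 FPKM, and APOA1 and APOH are dark in Huh7 replicate 1.

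Of 16 regulators known to act on the ALB and AFP genes, 15 were tested. In HepG2 all 15 tested had a positive fold change, with a median of 0.36 against -0.03 over all tested genes. CEBPA was called higher, where 0.877% of all genes were. The list median was -0.06 in replicate 1 and 1.2 in replicate 2, and 3 of the 15 were higher in both, where 26.4% of all genes were. Without HepG2 SR replicate 2 the median was 0.07. In Huh7, 13 of 15 were positive with a median of 0.35, against -0.05 over all tested genes. CEBPA and HNF4A were called higher and CEBPB lower, where 0.942% and 0.923% of all genes were.

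CEBPA, the C/EBP factor of the mature hepatocyte, was 17.9 and 27.2 FPKM in HepG2 WT and 41.5 and 78.2 FPKM in HepG2 SR. It was 12 and 14.5 FPKM in Huh7 WT and 42.9 and 27.4 FPKM in Huh7 SR. All 4 SR libraries lay above all 4 WT libraries, as 1.52% of all genes did, though the nearest were 27.4 and 27.2 FPKM. Over both lines, where 1.9% of all genes were called higher, the log2 fold change was 1.32 (SE 0.31, unadjusted limma p of 0.00412, adjusted p = 0.998). It was called in each of the 8 fits with a library left out, at 1.1 to 1.55. Within the lines it was 1.33 in HepG2 and 1.32 in Huh7, and these calls were lost without HepG2 WT replicate 1 or SR replicate 2 in HepG2 and without Huh7 WT replicate 1 or SR replicate 1 in Huh7.

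CEBPB, its partner in acute-phase responses, was 102 and 124 FPKM in Huh7 WT and 49.3 and 34.8 FPKM in Huh7 SR, a log2 fold change of -1.42 (SE 0.41, limma adjusted p 1) that was not called without Huh7 SR replicate 2. In HepG2 it was 28.1 and 40.5 FPKM in WT and 26.9 and 47.5 FPKM in SR. The difference between the lines was -1.5 (SE 0.57, unadjusted limma p of 0.0356, adjusted p = 1), and was called in 3 of the 8 fits with a library left out. With all libraries it was called, where 0.237% of all genes were in this direction. HNF4A, called at 0.96 in Huh7, was 32.2 and 22.2 FPKM in WT and 55.7 and 50.2 FPKM in SR, and the call was kept in 2 of those 8 fits. The widest ranges in the list were those of GATA6, at 0.0254 and 0 FPKM in Huh7 replicate 1 against 2.83 to 15.4 FPKM elsewhere, and ONECUT1, at 0.262 to 13.1 FPKM. Against HepG2, 12 of 15 were lower in Huh7 with a median of -0.26. GATA6 was called lower and CEBPB higher, where 2.87% and 2.04% of all genes were. The call of GATA6 was kept in 3 of the 8 fits with a library left out and that of CEBPB in 7.

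In the albumin family and its binding partners, 4 of 6 genes were tested and none was called for SR in either line, with medians of 0.26 in HepG2 and 0.81 in Huh7. GC, the vitamin D-binding protein and a close relative of ALB and AFP, was 442 FPKM in HepG2 SR replicate 2 and 8.18 and 19.3 FPKM in Huh7 replicate 1. It was under 0.1 FPKM in the 5 other libraries, where ALB was at 604 FPKM or above. FCGRT, the receptor that recycles albumin, was 15.6 to 68.5 FPKM. SPARC, an albumin-binding matrix protein, was called lower in Huh7, at -2.12 (SE 0.56, limma adjusted p 0.813), where 2.87% of all genes were called lower.

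Of 13 other oncofetal and progenitor genes, 11 were tested. HMGA2, a fetal chromatin protein, was called higher in Huh7 SR, from 23.6 and 19 FPKM to 32.1 and 66.2 FPKM (1.09, SE 0.41, limma adjusted p 1), in 3 of the 8 fits with a library left out. Of all genes, 0.942% were called higher in Huh7 SR. The list medians were 0.42 in HepG2, with none called, and 0.24 in Huh7. The HepG2 median was -0.05 in replicate 1 alone and -0.32 without HepG2 SR replicate 2, and the Huh7 median was -0.4 without Huh7 SR replicate 2. KRT19 was 155 to 760 FPKM in the 5 libraries of like expression and 0.179 to 2.37 FPKM in the others. CD24 was the reverse, at 3.67 to 9.71 FPKM and 266 to 325 FPKM. IGF2, the fetal growth factor, was 41.6 to 184 FPKM in HepG2, at or under 0.00932 FPKM in Huh7 replicate 1 and 11.5 and 126 FPKM in Huh7 replicate 2. Against HepG2, the list median in Huh7 was -0.74. It was 0.04 among the 5 libraries of like expression and -0.91 with Huh7 replicate 1 in place of replicate 2. Of all genes, 2.87% were called lower in Huh7. IGF2 and HMGA2 were called lower in Huh7 than in HepG2, in 3 and 1 of the 8 fits with a library left out.

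In the LIN28 and let-7 axis, 11 of 14 genes were tested, with medians of -0.02 in HepG2 and -0.22 in Huh7, and HMGA2 was the gene called for SR in Huh7. HMGA1 was 79.9 to 253 FPKM, MYC 26.2 to 97.3 FPKM and TRIM71 2.19 to 13.6 FPKM. MIRLET7BHG, a host transcript of let-7 genes, stayed at 0.029 to 0.673 FPKM and was not tested. HMGA2 was also the gene called lower in Huh7 in this list.

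Among 9 imprinted neighbours of DLK1 and PEG10, 3 were tested and none was called, with medians of -0.52 in HepG2 and -0.26 in Huh7. The Huh7 median was -0.75 in replicate 1 and 0.27 in replicate 2. MEG3, the maternally expressed neighbour of DLK1, was 0 to 0.532 FPKM in all libraries, also where DLK1 was at 33 to 62.1 FPKM. SGCE, CASD1 and PPP1R9A lie beside PEG10, and CASD1 was 3.46 to 10.2 FPKM and PPP1R9A 1.69 to 9.1 FPKM. PON1 was 6.43 FPKM in HepG2 SR replicate 2 and 0.0466 to 0.52 FPKM elsewhere.

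Partners of GPC3 and DLK1 and growth factor receptors were tested for 10 of 12 genes, and none was called in any comparison, with medians of -0.46 in HepG2 and -0.12 in Huh7. FURIN, the protease that cleaves GPC3, was 49.5 to 151 FPKM, and IGF2R 18.4 to 72.8 FPKM. CD81 was 53 to 70.4 FPKM in Huh7 replicate 1 and HepG2 SR replicate 2 and 0.00909 to 0.318 FPKM in the other 5. SULF2, which removes sulfate groups from heparan sulfate chains, had the reverse pattern, at 0 to 0.147 FPKM and 13.2 to 67.3 FPKM. All 7 genes known as cargo RNAs of IGF2BP proteins were tested, and none was called for SR, with medians of -0.02 in HepG2 and -0.38 in Huh7. ACTB was 747 to 1840 FPKM, CTNNB1 81 to 183 FPKM and MKI67 3.07 to 25.6 FPKM. Between the lines, 2.87% of all genes were called lower in Huh7. CTNNB1 was called lower in Huh7 than in HepG2, at -0.64 (SE 0.26, limma adjusted p 0.813), in 2 of the 8 fits with a library left out.

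The genes whose levels over the 8 libraries were most like those of ALB, AFP, GPC3 and LIN28B were sought by Pearson's r of log2(FPKM + 1) over 8789 genes. The points share libraries that fall into sets, so r is a description. For ALB they were PCSK6 (0.991), CPVL (0.989) and TIMP3 (0.984). For AFP they were ENPP2 (0.989), MASP1 (0.98) and RBM4B (0.979). For GPC3 they were RAB42 (0.992), ZNF503 (0.991) and FILIP1L (0.989). For LIN28B they were PLAGL1 (0.996), GULP1 (0.995) and LINC03046 (0.994). GULP1 was 14.1 to 34.4 FPKM in the 3 libraries with LIN28B above 35 FPKM and at most 0.0727 FPKM in the other 5.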

How the data were processed

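Poly(A) RNA of 8 libraries was enriched on oligo(dT) beads and prepared with an NEBNext Ultra kit. The authors deposited FPKM, 1 value per gene and library, without pooling. The submitters' processing notes name fastp 0.20.0 and GRCh38. The aligner, quantifier and annotation are not given in the sources used here. Symbols were matched for 62666 of 63241 identifiers (99.1%).

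Tests ran in limma 3.58.1 under R 4.3.3, on FPKM plus 1 in log2 units, with 4 group means, 4 residual degrees of freedom and a mean-variance trend. They covered the 15173 genes that reached 1 FPKM in 2 or more libraries. The median posterior SD was 0.484 (log2). The pipeline was tested on simulated data. There were 5 comparisons. Read totals are not held by FPKM, and no depth was derived.

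The 10 genes and all lists were chosen with earlier results of these data known. Named genes were the 10, the 3 highest by mean and the 2 widest by range in each list, any list gene at an adjusted p under 0.05 (there were 0) and the 3 most alike. Other genes (APOC3, TF, ITIH2, HP, AMBP, APOH, FGG, MEG3, MIRLET7BHG and the marker genes) were named after their values were seen, and 1 list gene is not reported here. Alternatives were a pseudocount of 0.1, a filter at 0.1 or none, rescaling to a common sum, quantile normalization, separate fits, a replicate block, no trend, the adjusted p, each replicate number alone and each library left out. 2 readings were added after seeing the data, that of the 5 libraries of like expression and that with Huh7 replicate 1 in place of replicate 2. MicroRNA sequences were read from RefSeq (GRCh38.p14) and target sites from GRCh38 with GENCODE release 29, and figures drawn with matplotlib 3.10.9 in Python 3.11.15.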

Additional observations from a re-analysis of the deposited data

Results flagged for a closer look

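In the 4 libraries labelled HepG2, HepG2 SR replicate 2 lay far from the others for 5 of the 10 genes. The gap to its nearest neighbour, as a share of the whole range on the log2(FPKM + 1) scale, was 0.913 for LIN28B, 0.908 for GPC3, 0.886 for AHSG, 0.851 for DLK1 and 0.839 for AFP, each above Dixon's 95% critical value for 4 samples. In this library LIN28B and AFP were above, and GPC3, AHSG and DLK1 below, the other 3. Of 20 such groups of 4 libraries looked at, about 1 in 20 would pass by chance, and the genes share the libraries.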

How the results depend on the processing

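Each result was recomputed under the alternatives listed in the methods. The number of the 10 genes called stayed at 0 for HepG2 SR versus WT, at 0 to 1 with a library left out. For Huh7 SR versus WT it was 0 to 2 with a library left out, and for the interaction 0 to 1. For Huh7 against HepG2 libraries it was 4, 2 to 6 with a library left out, and 0 at an adjusted p under 0.05. For SR against WT over both lines it was 0, 0 to 1 with a library left out, and 1 with the replicate number as a block (AFP, at 2.23, limma adjusted p = 0.998). ALB was not called in Huh7 against HepG2 with no filter on low values (-4.13).

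Within each line and between the lines, no sign of the 10 genes turned under the alternatives that kept all 8 libraries. The pooled comparison and the interaction were followed by their counts only. In HepG2, the log2 fold changes with a library left out were -0.02 to 5.37 for AFP, -1.74 to 0.09 for GPC3, -5.39 to 0.59 for DLK1, -0.32 to 3.32 for TTR and -3.5 to 0.35 for AHSG. In Huh7 they were -1.03 to 5.03 for ALB, -0.65 to 2.45 for GPC3, -2.6 to 3 for DLK1, -0.57 to 4.32 for TTR, -1.15 to 5.73 for AHSG, -1.17 to 0.61 for LIN28B, -0.35 to 0 for IGF2BP1 and -0.36 to 0.21 for IGF2BP3. For Huh7 against HepG2 they were -2.97 to 0.02 for DLK1, -0.06 to 0.83 for LIN28B and -0.1 to 0.19 for IGF2BP3. Where a group was left with 1 library, that library was assumed to vary like the others. With replicate 2 alone, Huh7 minus HepG2 turned to -0.95 for LIN28B. The cause was not tested.

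The replicate numbers pair nothing by the labels. Deviations from group means of same-numbered WT and SR libraries had a correlation of 0.125 in HepG2 and 0.796 in Huh7, and other pairs of groups -0.562 to -0.0416. The block changed no other call of the 10 genes. Rescaling to a common sum, which also raised the genes past the filter from 15173 to 18614, put the median of all genes at -0.12 in HepG2 and -0.11 in Huh7, with the share of calls that were higher in SR going from 40.9% to 23.4% in HepG2, from 50.5% to 35.5% in Huh7 and from 48.3% to 30% over both. Over all genes, 124 were called for Huh7 SR in a separate fit against 283, and 480 for HepG2 SR against 325. With a filter at 0.1, 504 were called for HepG2 SR against 325, and 254 for the interaction against 92. The interaction had 168 calls with no filter and 152 after rescaling with its larger gene set. With 2 libraries per group and such spread, the changes seen for AFP and ALB did not pass adjustment, nor did those of any other gene. The power to detect changes of that size at the spread of these genes was not tested.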
